A study of Homo sapiens with 6 samples.

Results

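Ribosomal protein processed pseudogenes were followed in the ovarian cancer cell line UWB1.289 after treatment with the PARP inhibitor Olaparib. The members were the genes that GENCODE release 44 lists as processed_pseudogene or transcribed_processed_pseudogene and whose symbol starts with RPL or RPS and ends in P and digits, provided that at least 1 read was counted over the 6 samples. Of 1576 such pseudogenes in the count table, 874 had at least 1 count and 702 had none, in a table of 63677 genes. The 1576 comprised 1092 copies of large subunit (RPL) genes and 484 copies of small subunit (RPS) genes, descended from 78 parent genes and spread over 24 chromosomes. The label matched the sequences, since 1571 copies aligned to the transcript of the parent that their symbol names, and for 1567 that parent was also the best match among all parents.

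Ribosomal proteins form the protein part of the large and small ribosomal subunits, and their mRNAs are among the most abundant in a growing cell. A processed pseudogene arises when such an mRNA is reverse transcribed and inserted elsewhere in the genome, so that it carries no introns, usually no promoter of its own, and often the remains of a poly(A) tail. The ribosomal protein genes are the best known source of these copies in the human genome. Because a young copy differs from its parent at few bases, a short read can match both.

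All 6 samples were UWB1.289 cells, a BRCA1-deficient ovarian cancer line whose genotype the labels give as WT. Cells received 4 µM Olaparib for 24 h (3 samples) or the solvent DMSO for 24 h (3 samples), with 3 dishes prepared per condition, and polyadenylated RNA was sequenced. The p-values below measure the spread between these dishes of 1 line. The series text names another Olaparib concentration than the sample labels and the treatment protocol, and the labels were followed here.

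Total counts lay between 35360458 and 39640775 per sample. Of 10 epithelial and ovarian tumor markers, 9 had at least 1243 counts in every sample, and WT1 had 8 counts over all samples. The 8 markers of blood, endothelial, red and liver cells summed to between 170.3 and 176.1 normalized counts with Olaparib and to between 123.6 and 141.2 with DMSO, groups that did not overlap. PECAM1 had 0 counts, CD3E and HBB at most 2 and LYZ at most 4 per sample. Their part in the results was not tested.

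The copies with the most reads are shown first, since they carry most of the counts: each line gives the first 90 parent bases that aligned within the coding sequence, read from the GRCh38 reference on the strand of the pseudogene, with capitals where the pseudogene differs from its parent. RPS2P46 (chr17:19445970-19446852, minus strand), RPLP0P6 (chr2:38481851-38482804, plus strand) and the related RPL23AP7 (chr2:113610502-113627090, minus strand) and RPL23AP49 (chr3:75624275-75670159, minus strand) start at the ATG. RPL10P3 (chr9:117180628-117181095, minus strand) lacks the start and aligned from base 327 of the coding sequence. The last 2 RPL23A copies each lack 3 bases of the parent in this stretch.
RPS2P46: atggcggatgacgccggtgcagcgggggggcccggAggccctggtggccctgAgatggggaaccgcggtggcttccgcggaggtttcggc
RPS2: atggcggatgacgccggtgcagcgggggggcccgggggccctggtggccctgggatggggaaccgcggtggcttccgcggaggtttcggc
RPL10P3: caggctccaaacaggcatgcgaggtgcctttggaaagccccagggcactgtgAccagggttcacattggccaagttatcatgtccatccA
RPL10: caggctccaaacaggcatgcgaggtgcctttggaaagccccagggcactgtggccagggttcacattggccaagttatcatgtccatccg
RPL23AP7: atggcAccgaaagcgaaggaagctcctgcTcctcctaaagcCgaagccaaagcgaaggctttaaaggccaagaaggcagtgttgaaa
RPL23AP49: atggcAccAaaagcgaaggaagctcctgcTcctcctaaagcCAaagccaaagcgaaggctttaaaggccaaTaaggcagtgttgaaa
RPL23A: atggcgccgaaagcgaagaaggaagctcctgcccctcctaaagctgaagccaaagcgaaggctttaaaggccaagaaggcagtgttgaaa
RPLP0P6: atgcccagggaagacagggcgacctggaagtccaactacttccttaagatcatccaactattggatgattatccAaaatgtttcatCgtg
RPLP0: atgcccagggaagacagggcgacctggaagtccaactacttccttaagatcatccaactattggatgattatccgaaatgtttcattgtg

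Within the same first 90 coding bases, RPS27AP16 (chr16:61055399-61055964, minus strand), RPL24P4 (chr6:42956345-42956765, minus strand) and RPL13AP5 (chr10:96750288-96750899, plus strand) had 0 differences from their parents. These 3 copies passed the test for a lower level with Olaparib, and their shared text shows which reads could belong to either gene.
RPS27AP16 and RPS27A: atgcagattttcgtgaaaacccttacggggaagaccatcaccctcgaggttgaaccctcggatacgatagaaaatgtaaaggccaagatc
RPL24P4 and RPL24: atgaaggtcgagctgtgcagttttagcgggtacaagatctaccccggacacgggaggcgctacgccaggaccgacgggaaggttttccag
RPL13AP5 and RPL13A: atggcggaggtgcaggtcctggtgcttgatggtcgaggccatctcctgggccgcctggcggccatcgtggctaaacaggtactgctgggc

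Where the called copies can be told apart from the parent is shown by the 60 coding bases that hold the most differences, again in capitals. RPS27AP16 had 2 differences there, RPL24P4 had 3, RPL13AP5 had 1, and RPL15P18 (chr13:100150481-100151092, minus strand) had 6 mismatches and 1 inserted base. RPS28P7 (chr11:82689559-82689768, plus strand) matched its parent over all 210 bases, so no stretch of it differs.
RPS27AP16: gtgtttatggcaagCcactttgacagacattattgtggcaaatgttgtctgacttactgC
RPS27A: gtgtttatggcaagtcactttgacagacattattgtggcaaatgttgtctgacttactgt
RPL24P4: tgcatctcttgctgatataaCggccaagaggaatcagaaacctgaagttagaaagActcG
RPL24: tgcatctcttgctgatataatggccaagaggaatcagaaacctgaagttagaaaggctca
RPL13AP5: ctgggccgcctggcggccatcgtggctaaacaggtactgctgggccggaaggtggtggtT
RPL13A: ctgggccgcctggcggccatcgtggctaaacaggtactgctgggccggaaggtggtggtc
RPL15P18: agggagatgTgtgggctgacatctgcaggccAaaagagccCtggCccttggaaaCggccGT
RPL15: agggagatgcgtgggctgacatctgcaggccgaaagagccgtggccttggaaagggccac
RPS28P7 and RPS28: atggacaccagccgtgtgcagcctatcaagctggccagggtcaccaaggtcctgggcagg

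The copies ranged from nearly intact to strongly decayed. Identity to the parent transcript had a median of 88.78% with quartiles of 83.33% and 92.77%, and the median exonic length was 471 bases. The start codon was inside the alignment for 982 copies, of which 168 kept an open reading frame over at least 95% of the parent's length. At least 20 A in a stretch of 30 bases behind the copy remained in 364 copies. By position, 697 copies lay between genes, 449 in an intron on the strand opposite to the host gene, 321 in an intron on the host's strand, and 109 overlapped an exon of another gene.

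Reads were spread very unevenly over the copies. The 6 samples held 58058 member counts in all, and RPS2P46 took 45.6% of them and RPL10P3 another 8.63%. The 12 copies with the most counts together took 65%. At the other end, 549 copies had 1 to 10 counts and 702 had 0 of 224646321 counts, which allows up to 0.0134 CPM (counts per 1000000 reads counted) for each, counting error only. The filter of more than 10 counts over the 6 samples left 325 copies for the test.

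The share of copies with any count was higher at higher identity to the parent. It was 25.5% of 204 copies at up to 80% identity, 30.4% of 296 copies between 80% and 85%, 45.4% of 399 copies between 85% and 90%, 74.8% of 457 copies between 90% and 95%, 97.9% of 140 copies between 95% and 98%, and 93.3% of 75 copies above 98%. Among copies with counts, the median level was 9.0 counts per kb of exon at up to 80% identity, 5.9 between 80% and 85%, 5.4 between 85% and 90%, 10.2 between 90% and 95%, 29.0 between 95% and 98%, and 105.0 above 98%. The level was thus lowest between 85% and 90% and higher in each class above that. Olfactory receptor genes, which an epithelial line should not express, had counts in 15.4% of 383 genes, with a 95th percentile of 2.02 counts per kb over the 6 samples. That value was exceeded by 798 of the 1576 pseudogenes. In a copy of the median exonic length, 471 bases, 1 count over the 6 samples already exceeds it. The number therefore largely restates that 874 copies had any count, and does not place them above a background. The median over all pseudogenes was 2.09 counts per kb, against 39730.9 for the parent genes.

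**Figure D1:**
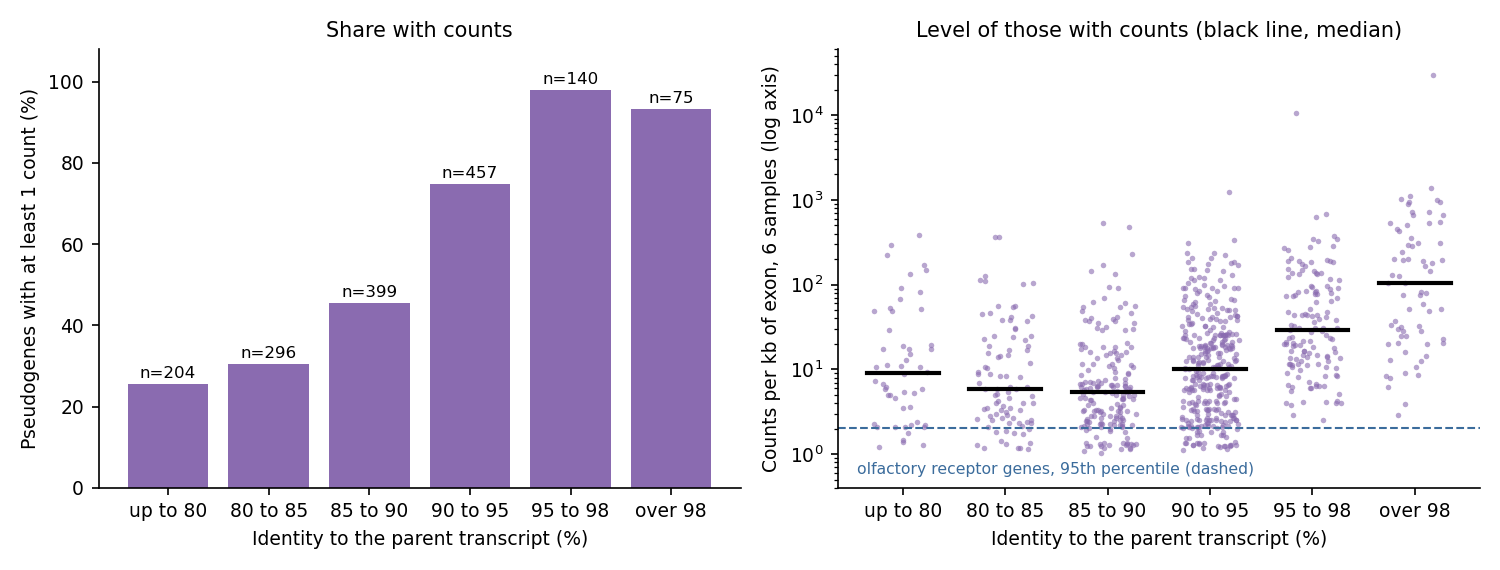
Left, the percentage of RP processed pseudogenes with at least 1 count over the 6 samples in 6 classes of identity to the parent transcript, with the number of copies in each class. Right, counts per kb of exon on a log axis for each copy with counts, with the class median as a black line and the 95th percentile of the olfactory receptor genes (2.02) dashed. The median above 98% identity is 105.0.

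To see which copies share sequence with other genes, each 50-base stretch of exon was looked up in all annotated transcripts of other genes. No stretch was shared for 690 copies, of which 236 had counts, and 885 copies shared at least 1. The 885 held 55897 of the 58058 counts. For a read that falls in a shared stretch the gene of origin cannot be told apart, and how the counting treated reads with several matches is not given in the sources used here. Values of copies with shared stretches are therefore uncertain as measures of those copies.

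Summed over all copies, the level was slightly lower with Olaparib. The normalized counts summed to 9334.8, 9506.3 and 9480.3 with Olaparib and to 10029.2, 9562.7 and 10130.2 with DMSO. No Olaparib sample reached the lowest DMSO sample, and the difference was -0.07 on the log2 scale (p = 0.1 in a two-sided exact permutation test, which with 3 against 3 samples cannot go lower, so that no sum could pass 0.05). In bulk RNA, fewer cells with a transcript and less of it per cell cannot be told apart.

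RPS2P46 holds nearly as many counts as all other copies together and did not share this direction. Its normalized counts were 4601.1, 4526.5 and 4412.6 with Olaparib and 4477.2, 4108.7 and 4389.2 with DMSO, and the groups overlapped. The remaining copies summed to 4733.7, 4979.8 and 5067.7 with Olaparib and to 5552.0, 5454.1 and 5741.0 with DMSO. All 3 Olaparib samples lay below all 3 DMSO samples by a wide gap, a log2 difference of -0.18 (exact permutation p = 0.1). Without the 10 copies with the most counts, the difference was -0.20 (exact permutation p = 0.1).

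The parent genes were not lower in sum. Their normalized counts summed to 1979356.7, 2052107.8 and 2076155.8 with Olaparib and to 1956807.1, 1968887.1 and 2024944.0 with DMSO, a log2 difference of 0.04 with overlapping groups (exact permutation p = 0.2). Per 1000 parent counts, the copies other than RPS2P46 gave 2.39, 2.43 and 2.44 counts with Olaparib and 2.84, 2.77 and 2.84 with DMSO. The groups were separate, with a log2 difference of -0.22 (exact permutation p = 0.1) and a pooled SD within groups of 0.0176.

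Processed pseudogenes of other genes were lower in sum as well. The 8604 such genes summed to between 26634.1 and 27215.2 normalized counts with Olaparib and to between 28522.5 and 29042.1 with DMSO, a log2 difference of -0.09 (exact permutation p = 0.1). As a share of these counts, all RP copies made up 34.8% to 35.4% with Olaparib and 33.5% to 35.4% with DMSO (log2 difference 0.02, exact permutation p = 0.5). The RP copies without RPS2P46 made up 17.8% to 18.6% with Olaparib and 19.1% to 20.1% with DMSO (log2 difference -0.09, exact permutation p = 0.1).

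**Figure D2:**
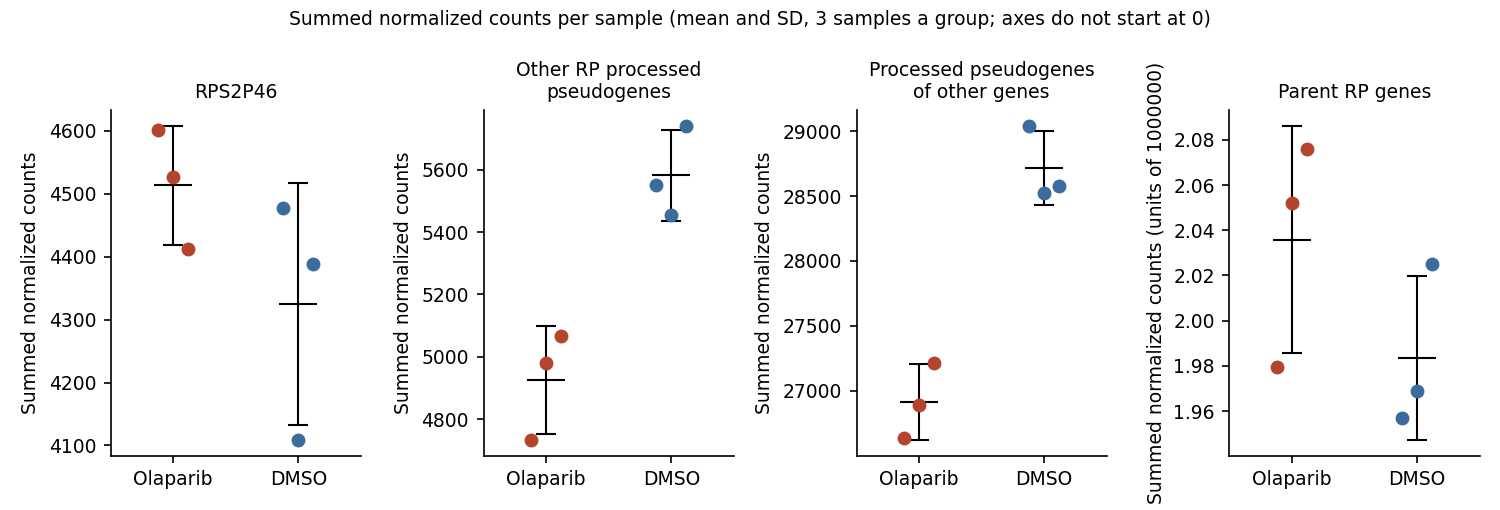
Summed normalized counts in each of the 3 Olaparib and 3 DMSO samples (points) with mean and SD (bars) for RPS2P46, the other RP processed pseudogenes, processed pseudogenes of other genes, and the parent RP genes (in units of 1000000 counts). The axes do not start at 0. The middle panels show separate groups with Olaparib lower; RPS2P46 and the parent genes overlap.

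Per gene, more copies were lower than higher with Olaparib, while few passed the test. In the edgeR quasi-likelihood fit over 21729 genes, 214 of the 325 tested copies had a log2 fold change below 0, or 65.8%, against 51.4% of all genes tested. The median log2 fold change of the copies was -0.20, and that of all genes tested was -0.0042. Of the 77 parent genes tested, 65 were above 0 and 12 below, with a median of 0.03. Processed pseudogenes of other genes had a median of -0.16 with 768 of 1236 below 0, and unprocessed pseudogenes had a median of -0.02 with 246 of 458 below 0.

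At a Benjamini-Hochberg adjusted p under 0.05, 6 copies were lower, 1.85% of those tested, against 1.21% of all genes tested. No copy was higher, against 2.15% of all genes tested, or 0.723% with a fold threshold of 1.2. All 6 also passed the fold threshold of 1.2, which 0.483% of all genes passed in that direction. At an unadjusted p under 0.05, 24 copies were lower (7.38%, with 6.97% of all genes) and 3 were higher (0.923%, with 7.83% of all genes). In 35 copies all Olaparib samples lay below all DMSO samples (10.8%, with 9.29% of all genes), and in 11 copies they lay above (3.38%, with 10.0% of all genes). At an unadjusted p and by separate groups, the share of lower copies was close to that of all genes. The share with the fold threshold, 1.85% against 0.483%, rests on the same 6 calls. Of these, limma voom called 2 and DESeq2 with its independent filtering 0. The share of higher copies was below that of all genes by each measure. Processed pseudogenes of other genes also had low shares: 2.02% were higher at an unadjusted p under 0.05 and 3.4% by separate groups. At an adjusted p under 0.05, 6 of 1236 of them were higher. A low share of higher genes was thus not particular to the RP copies. Counts differed too: 225 copies had 11 to 59 counts and 35 at least 200, against 5112 and 13767 of all other genes tested.

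**Figure D3:**
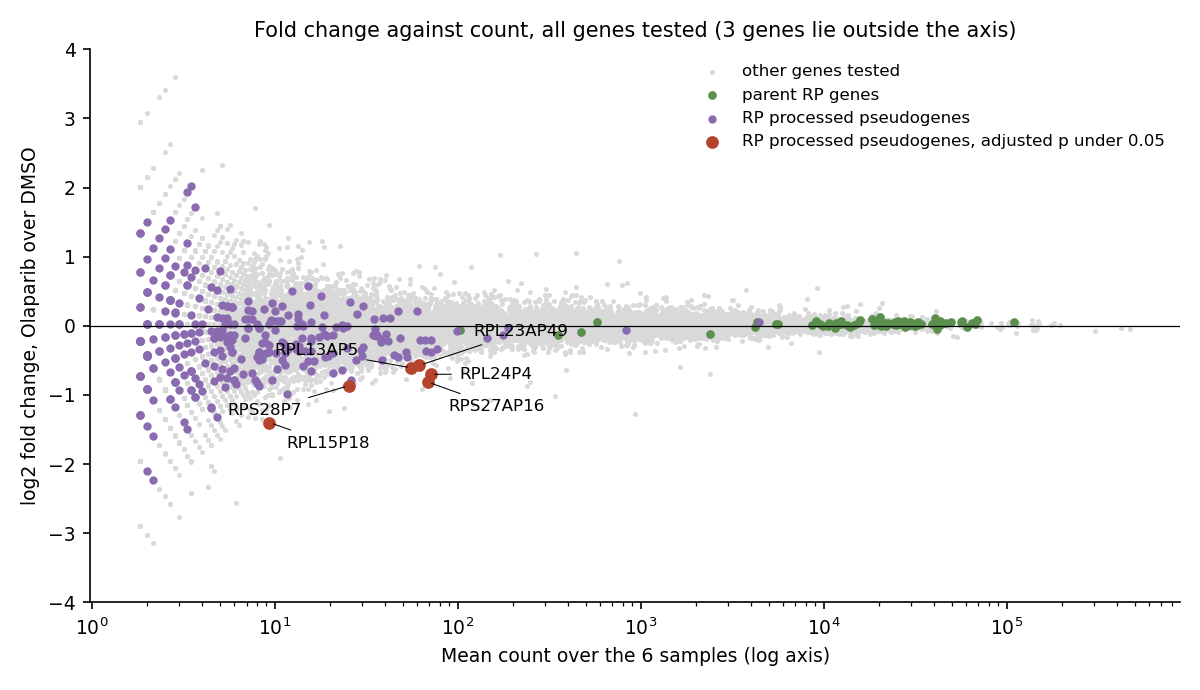
Each gene's log2 fold change of Olaparib over DMSO against its mean count over the 6 samples on a log axis, for all 21729 genes tested, with 3 genes outside the axis. RP processed pseudogenes are purple, the 6 with an adjusted p under 0.05 red and named, and the parent RP genes green. All 6 called copies lie below 0, and the parents lie near 0 at far higher counts.

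RPS27AP16 is a transcribed copy of RPS27A, which encodes ubiquitin fused to a small subunit protein. Its normalized counts were 48.6, 39.0 and 60.6 with Olaparib and 75.3, 90.2 and 94.8 with DMSO, with every Olaparib sample below every DMSO sample. The log2 fold change was -0.81 ± 0.16 (SE), with an adjusted p of 0.00198 in edgeR's quasi-likelihood test. RPS27A itself had 39940.5 to 41995.8 normalized counts with Olaparib and 39055.0 to 40811.2 with DMSO, a log2 fold change of 0.03. The copy lies between genes, is 98.67% identical to the RPS27A transcript, and shares 56.3% of its 50-base stretches with transcripts of other genes. Behind the copy, 23 of 30 bases were A.

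RPL24P4 is a copy of RPL24, whose protein sits at the face where the subunits join. It had 51.6, 52.3 and 57.7 normalized counts with Olaparib and 80.5, 91.2 and 91.0 with DMSO, again without overlap. The log2 fold change was -0.70 ± 0.15 (SE) with an adjusted p of 0.00327 (edgeR quasi-likelihood). Another copy of the same parent, RPL24P2, had 86.0, 99.5 and 102.4 with Olaparib and 103.5, 105.9 and 94.8 with DMSO, overlapping groups with a log2 fold change of -0.08 and an adjusted p of 0.843 in the same test. RPL24P4 shared 43.3% of its stretches and RPL24P2 12.2%. The parent RPL24 had a log2 fold change of 0.03.

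RPL13AP5 is a copy of RPL13A, a large subunit protein. Its normalized counts of 38.5, 41.0 and 52.7 with Olaparib lay below the 65.9, 58.8 and 76.8 with DMSO. The log2 fold change was -0.61 ± 0.17 (SE), adjusted p 0.0393 in edgeR's quasi-likelihood test. The copy keeps the full reading frame, has 29 A in 30 bases behind it, is 99.51% identical to its parent, and shares 79.4% of its stretches. RPL13A had a log2 fold change of 0.06.

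RPS28P7 is a copy of RPS28, a small subunit protein. It had 15.2, 18.5 and 19.9 normalized counts with Olaparib and 27.2, 30.4 and 39.8 with DMSO. The groups were separate, with a log2 fold change of -0.87 ± 0.24 (SE) and an adjusted p of 0.0394 (edgeR quasi-likelihood). Every one of its stretches occurs in RPS28, so reads of the exon alone cannot be assigned to the copy by sequence. RPS28 had a log2 fold change of -0.01 at 83739 counts, against 152 for the copy.

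RPL23AP49 is a copy of RPL23A, whose protein lies at the exit of the nascent peptide tunnel, and is annotated as transcribed with 4 exons. It had 56.7, 44.1 and 47.7 normalized counts with Olaparib and 83.6, 65.7 and 72.0 with DMSO, without overlap. The log2 fold change was -0.57 ± 0.16 (SE), adjusted p 0.0393 in edgeR's quasi-likelihood test. It differs from the other called copies in that only 0.5% of its stretches occur in the parent, while 18.4% occur in some other gene, most often in ENSG00000282912. It overlaps exons of that gene, of CLUHP10 and of DUX4L26 on the opposite strand, so without the strand setting of the counting, reads of these genes cannot be told apart.

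RPL15P18, a copy of RPL15 in an intron of PCCA on the opposite strand, had the fewest counts of the 6. It had 4.0, 6.2 and 5.0 normalized counts with Olaparib and 13.6, 11.8 and 15.2 with DMSO. The log2 fold change was -1.40 ± 0.41 (SE) with an adjusted p of 0.0475 (edgeR quasi-likelihood). At 95.43% identity it shared 11.5% of its stretches. RPL15, with 130850 counts, had a log2 fold change of 0.0025.

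The calls of RPL24P4 and RPS27AP16 held under every alternative fit that gave them an adjusted p. Those 2 were also the copies called by limma voom and, without its independent filtering, by DESeq2. With that filtering, DESeq2 gave an adjusted p to only 6 of the 325 copies and called 0 of them, with 7 lower and 1 higher at an unadjusted p under 0.05. The other 4 copies were called neither by limma voom nor by DESeq2. In edgeR, each lost its call when some single libraries were left out. RPL23AP49 lost it without Olaparib replicate 2 (adjusted p 0.171), Olaparib replicate 3 (0.136), DMSO replicate 1 (0.185) or DMSO replicate 3 (0.0919) in edgeR. RPL13AP5 lost it without Olaparib replicate 1 (adjusted p 0.137), Olaparib replicate 2 (0.149), DMSO replicate 1 (0.0861) or DMSO replicate 3 (0.217) in edgeR. RPS28P7 lost it without Olaparib replicate 1 (adjusted p 0.121), 2 (0.0959) or 3 (0.0753), or without DMSO replicate 2 (0.0794) or 3 (0.239), in edgeR. RPL15P18 lost it in edgeR without any single library, with adjusted p of 0.118, 0.079 and 0.134 without Olaparib replicates 1, 2 and 3 and of 0.103, 0.0813 and 0.165 without DMSO replicates 1, 2 and 3.

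Just outside the threshold was RPLP0P9 with a log2 fold change of -0.78 and an adjusted p of 0.0649 in edgeR's test. Further from it in the same test were RPL37P6 with 2.02 and 0.142, and RPS27P13 with -0.99 and 0.159. RPL37P6, RPL7P48 and RPS15AP14 were the 3 higher copies at an unadjusted p under 0.05 and were picked out after their values were seen. RPL7P48 had 7.1, 5.1 and 5.0 normalized counts with Olaparib and 3.1, 1.0 and 0.9 with DMSO. Levels of RPL37P6 were 3.0, 7.2 and 7.0 against 2.1, 0.0 and 1.9. RPS15AP14 stood at 4.0, 3.1 and 8.9 against 2.1, 1.0 and 0.9. All 3 rest on 20 to 22 counts over the 6 samples.

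Among the 12 copies with the most counts, RPL24P4 and RPS27AP16 passed the adjusted test. RPL10P3, a partial copy of RPL10, whose protein joins the large subunit late in its assembly, had 755.0, 874.9 and 817.1 normalized counts with Olaparib and 827.1, 855.1 and 875.9 with DMSO. The groups overlapped, and the log2 fold change was -0.06 ± 0.05 (SE) with an adjusted p of 0.619 (edgeR quasi-likelihood). It overlaps SNORA70C, a small nucleolar RNA gene, on the same strand inside an intron of ASTN2, so their reads cannot be told apart. It shared only 7.6% of its stretches, all with RPL10.

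RPS2P46 had a log2 fold change of 0.06 ± 0.04 (SE) and an adjusted p of 0.45 in edgeR's test. RPS2, its parent, encodes a small subunit protein near the mRNA entry site and had 27796.0, 30434.8 and 29805.7 normalized counts with Olaparib and 28488.0, 28416.6 and 28896.5 with DMSO, a log2 fold change of 0.04. Per kb of annotated exon, the level of the copy was 134 CPM and that of RPS2 was 324, where the parent's exons include all of its annotated transcripts. The copy's counts amounted to 15.2% of the parent's, while in the other 11 of the 12 copies the figure ranged from 0.104% for RPL4P4 to 2.45% for RPL10P3. RPS2P46 lies in an intron of ENSG00000235979 on the same strand, covers the whole coding sequence at 98.64% identity, and its reading frame is broken early. It shared 59.5% of its stretches with transcripts of other genes, and 48.6% occur in RPS2. Reads in these stretches cannot be assigned to the copy by sequence, so its level and its share of the parent's counts are uncertain. A more decayed copy of the same parent, RPS2P32 at 87.22% identity, had 428 counts and shared 3.8% of its stretches.

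RPS18P5, RPL14P1 and RPL4P4 had separate groups without passing the adjusted test. RPS18P5 had 60.7, 68.7 and 75.5 normalized counts with Olaparib and 82.6, 94.1 and 81.5 with DMSO, a log2 fold change of -0.33 with an adjusted p of 0.237 in edgeR's test. RPL14P1 had 65.8, 57.4 and 62.6 against 80.5, 73.5 and 87.2, and RPL4P4 had 56.7, 62.6 and 56.7 against 76.3, 75.5 and 74.9. Their adjusted p-values were 0.176 and 0.197 in the same edgeR test. In the remaining 5 copies, RPL23AP7, RPLP0P6, RPL13P12, RPL24P2 and RPS2P32, the groups overlapped, and log2 fold changes lay between -0.21 and -0.04.

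**Figure D4:**
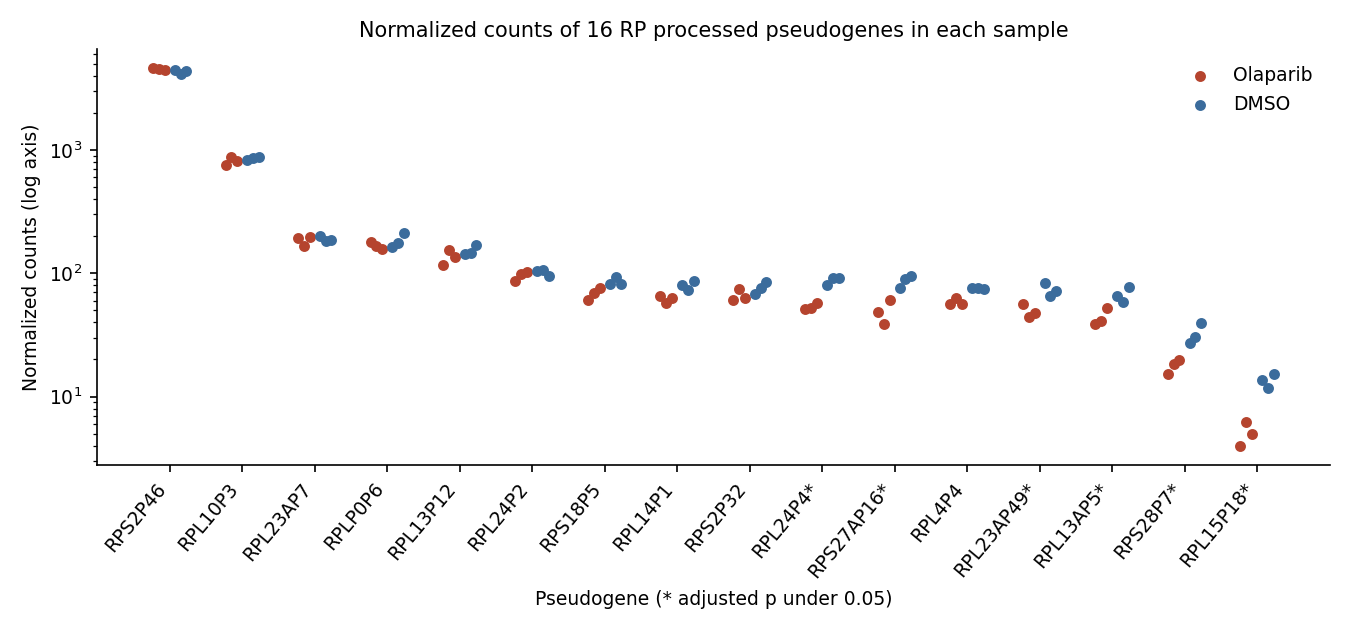
Normalized counts on a log axis of 16 RP processed pseudogenes in each Olaparib (red) and DMSO (blue) sample, ordered by total count, with an asterisk at an adjusted p under 0.05. RPS2P46 lies between 4108.7 and 4601.1, and the red and blue points of the 6 marked copies do not overlap.

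Of the 77 parent genes tested, 3 passed the adjusted test and all were higher with Olaparib, a direction in which 2.15% of all genes passed. With the fold threshold of 1.2, 0 parents passed, against 0.723% of all genes in that direction. At an unadjusted p under 0.05 in edgeR, 15 parents were higher (19.5%, with 7.83% of all genes) and 0 lower (with 6.97% of all genes). RPLP1, a protein of the ribosomal stalk, had 39807.9, 43216.2 and 43018.7 normalized counts with Olaparib and 39051.5, 38864.8 and 39096.8 with DMSO (log2 fold change 0.11 ± 0.03 SE, adjusted p 0.028 in edgeR). RPL28 had a log2 fold change of 0.10 with separate groups (adjusted p 0.0353 in edgeR). The number of parents called also depended on single libraries. It was 0 without Olaparib replicate 2, Olaparib replicate 3 or DMSO replicate 2, and 13 without Olaparib replicate 1. Without DMSO replicate 1, 0 parents were called higher and 1 lower.

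Grouped by parent, the copies of most ribosomal protein genes were lower with Olaparib. Of 59 families with at least 60 counts, 47 had a lower and 12 a higher sum, and 50 lay below the log2 fold change of their own parent. In 16 families all Olaparib samples were below all DMSO samples, and in 0 above. Among all single genes tested, 9.29% lay all below and 10.0% all above. Some of the 16 were separate only narrowly. In the family of RPL5 the highest Olaparib sum was 173.0 and the lowest DMSO sum 173.5, and that of RPS27 had a similarly narrow gap. The lowest log2 differences were those of the families of RPS28 at -0.88, RPS10 at -0.75, RPL8 at -0.71 and RPS27A at -0.64, of which that of RPS10 had overlapping groups. The highest were those of RPL23 at 0.36, RPL35A at 0.29, RPLP1 at 0.22 and RPS15A at 0.11, all with overlapping groups. Apart from RPS27A with 839 counts and RPS15A with 606, these families held few counts, 74 to 153 each. The called copy RPS28P7 held 152 of the 153 counts of the RPS28 family, and RPS27AP16 held 411 of the 839 of the RPS27A family. The values of these families therefore partly repeat the calls given above. The families with the most counts were those of RPS2 at 0.06, RPL10 at -0.08, RPL23A at -0.19 and RPLP0 at -0.23, and of these the groups were separate for RPL23A. Reads from a stretch that copies and parent have in common could come from any of them. How such reads were counted is not given, so the members of a family may not be independent of each other.

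Set beside its own parent, 219 of 324 tested copies had the lower fold change, with a median difference of -0.22 on the log2 scale. In 180 pairs the copy was below 0 and the parent above, in 33 both were below, in 101 both above, and in 10 the copy was above and the parent below.

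Copies that share sequence with other genes were set beside those that do not. Of the 285 tested copies with a shared 50-base stretch, 194 were below 0 and 91 above, with a median log2 fold change of -0.22, and all 6 calls were among them. Of the 40 tested copies without a shared stretch, 20 were below 0 and 20 above, with a median of 0.0015. These 40 hold few counts: the 690 copies without a shared stretch summed to 312.7, 373.4 and 365.8 normalized counts with Olaparib and to 403.6, 363.8 and 344.1 with DMSO. Their groups overlapped, with a log2 difference of -0.08 (exact permutation p = 0.6). The difference between the 2 classes was not tested.

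At like counts the classes compared as follows. Among copies with 11 to 59 counts, 125 of 192 with a shared stretch were below 0, with a median of -0.22, against 14 of 33 without one, with a median of 0.03. With 60 to below 200 counts, the figures were 40 of 58 (median -0.22) and 6 of 7 (median -0.15). The copies without a shared stretch and with the most counts were RPL21P118 with 181 and a log2 fold change of -0.30, RPS15AP6 with 139 and 0.01, RPL13P8 with 115 and -0.15, and RPL36AP54 with 85 and -0.01, which were picked by count after the values were seen. RPS15AP6 lies in an intron of EIF4G3 on the same strand, and RPL13P8 and RPL36AP54 lie between genes.

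Most copies were below 0 in each count class that entered the test. The numbers below 0 were 139 of 225 copies with 11 to 59 counts, 46 of 65 with 60 to below 200, and 29 of 35 with at least 200, with medians of -0.21, -0.21 and -0.19. Of all other genes tested in the same count classes, 53.2%, 55.4% and 49.6% were below 0. For processed pseudogenes of other genes these shares were 59.1%, 69.5% and 69.5%, and for protein-coding genes 50.1%, 47.9% and 47.5%. The 549 copies with 1 to 10 counts were not in this test. They summed to 279.3, 313.9 and 313.1 normalized counts with Olaparib and to 294.9, 350.1 and 330.8 with DMSO, overlapping groups. In the fit without a filter on low counts, 456 of 874 copies were below 0, or 52.2%.

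By identity to the parent, the sums of the copies other than RPS2P46 were separate between the groups in each class above 85%. Between 95% and 98% they only just were, since the highest Olaparib and the lowest DMSO sum both round to 1738.6. Above 98% identity they were 1352.2, 1348.8 and 1434.4 with Olaparib and 1654.1, 1702.3 and 1817.3 with DMSO, a log2 difference of -0.32. Between 95% and 98% the log2 difference was -0.12, between 90% and 95% it was -0.12, and between 85% and 90% it was -0.14. Below 85% the groups overlapped. The medians of the tested copies were -0.23 above 98%, -0.22 between 95% and 98%, -0.14 between 90% and 95%, -0.21 between 85% and 90%, -0.23 between 80% and 85% and -0.07 at up to 80%. These medians had no steady order with identity.

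**Figure D5:**
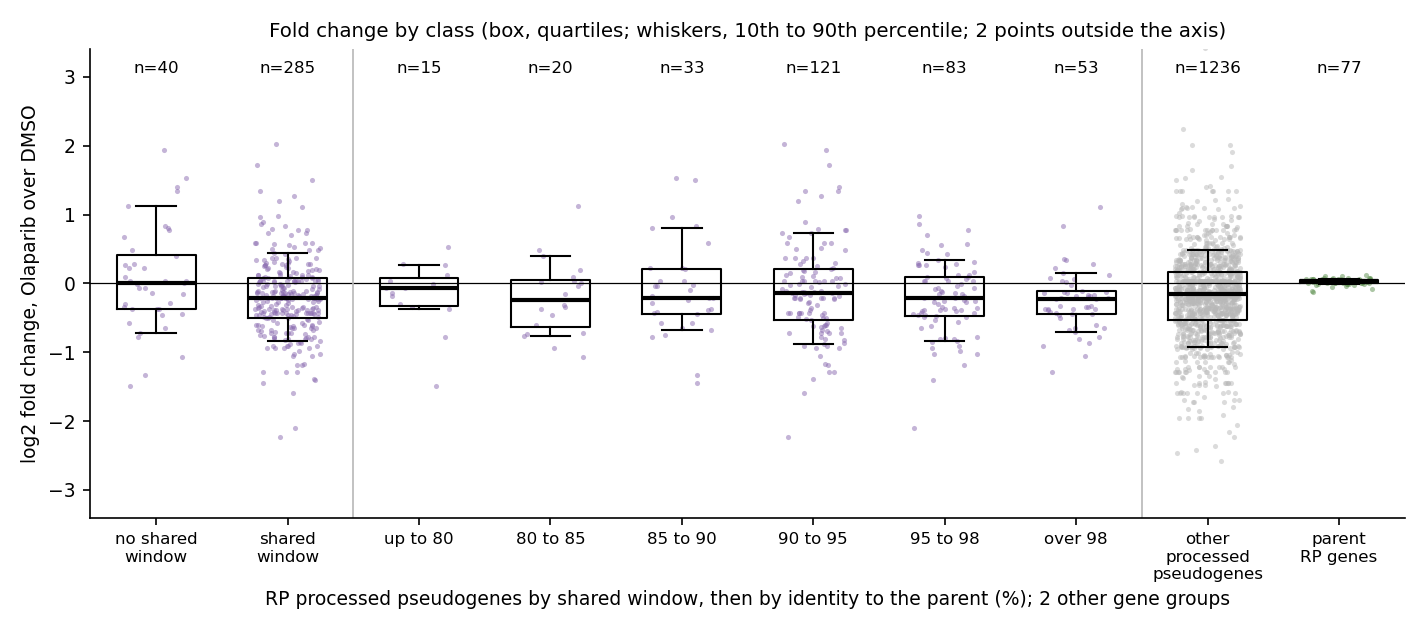
The log2 fold change of Olaparib over DMSO of each tested RP processed pseudogene (points; boxes, quartiles; whiskers, 10th to 90th percentile), by whether it shares a 50-base stretch with another gene and by identity to the parent, beside processed pseudogenes of other genes and parent RP genes. The median is 0.0015 without and -0.22 with a shared stretch, and 2 points lie outside the axis.

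The median was below 0 in every class of position, annotation and state of the copy. The medians were -0.18 for 128 tested copies between genes, -0.17 for 94 in introns of the same strand, -0.14 for 69 in introns of the opposite strand and -0.31 for 34 that overlap an exon of another gene. The sums without RPS2P46 were separate in all 4 classes with Olaparib lower. In the exon class the gap was narrow, with 1325.2 as the highest Olaparib sum and 1325.8 as the lowest DMSO sum. Copies annotated as transcribed had a median of -0.19 over 31 tested, and the others -0.21 over 294. Copies with at least 95% of the reading frame had a median of -0.22 over 75 tested, and those with a shorter frame -0.15 over 167. With at least 20 A behind the copy the median was -0.17 over 102 tested, and with fewer -0.22 over 190. None of these differences between classes was tested.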

How the data were processed

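Polyadenylated RNA of 3 Olaparib and 3 DMSO dishes of UWB1.289 cells was sequenced. The authors trimmed adapters with Trimmomatic, mapped to GRCh38 with STAR, marked PCR duplicates with Picard and deposited whole-number counts per gene from featureCounts, without normalization. The library kit was stranded per the paper's methods, while the strand and multiple-match settings of featureCounts, and whether duplicates were removed, are not given in the sources used here. Groups came from the sample titles.

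The pseudogenes and gene lists were chosen with earlier results of these data known. Identifiers were matched to GENCODE release 44, which held 81.9% of those in the table (6 of the 1582 annotated pseudogenes were absent from it). The parent was the protein-coding gene named before the final P. Identity came from blastn 2.17.0 against the parent's main transcript, and shared 50-base stretches from an exact search of all GENCODE transcripts on both strands. Overlaps with other genes were taken from the same annotation, and sequences were read from the GRCh38 genome.

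Genes with more than 10 counts over the 6 samples were tested with edgeR 4.0.16 (R 4.3.3; TMM, quasi-likelihood F-test, Benjamini-Hochberg over 21729 genes). The fit was tested on simulated data. Normalized counts are counts divided by the sample's effective library size relative to the mean. Standard errors were derived from the fold change and the F statistic. Sums were compared by the exact permutation test (scipy 1.17.1), with 0.1 as its smallest p. Total counts of 35360458 to 39640775 put 3 counts at 0.0757 to 0.0848 CPM. Alternatives were DESeq2 1.42.0, limma 3.58.1 voom, other size factors, other filters, a replicate block, leaving out each sample, and other sets of pseudogenes. DESeq2 without independent filtering and the split by shared stretches were chosen after seeing the data. In pairwise chi-square tests of replicates of 1 group over 15525 genes, chi-square per degree of freedom was 1.81 to 4.11, so all 6 samples were counted separately.

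Pseudogenes named in the text were the 12 with the most counts and those with an adjusted p under 0.05, 16 in all, with their 13 parents. Others are said to have been picked after their values were seen. The sequences shown were the first 90 aligned coding bases of the 4 with the most counts and the 4 with the smallest p; the 60-base stretches were added afterwards. The values of 1 parent gene that passed the test are not reported here.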

Additional observations from a re-analysis of the deposited data

How the results depend on the processing

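The median log2 fold change of the pseudogenes kept its direction under every alternative fit, with medians from -0.21 to -0.0837, the latter without a filter on low counts, and under every alternative set of pseudogenes except those without a shared 50-base stretch, whose median was 0.0015 with 0 lower calls and 20 of 40 below 0. The number of lower calls, 6 in edgeR with or without the fold threshold of 1.2, was 2 in limma voom, 2 in DESeq2 without independent filtering and 0 in DESeq2 with it, and 2 to 4 when single samples were left out. At an unadjusted p under 0.05, higher pseudogenes numbered 1 and lower ones 7 in both DESeq2 fits, against 3 and 24 in edgeR; higher ones numbered 5 in limma voom, 0 with filterByExpr and 2 to 7 when single samples were left out. The cause was not tested. Fewer pseudogenes (105) were tested under filterByExpr.

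The log2 difference of the sums was -0.0692 with all pseudogenes, -0.1804 without RPS2P46 and -0.2029 without the 10 with the most counts. Relative to the parents it was -0.1067, -0.2178 and -0.2403. Leaving out single samples gave -0.0946 to -0.0530 and -0.1267 to -0.0879. Higher parent genes numbered 5 without a count filter and 0 to 13 when single samples were left out, and lower ones 0 to 1.

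The replicate numbers were not used as pairs in the reported test. Deviations of same-numbered samples correlated at -0.0524, 0.0864 and -0.0470, and those of other pairs at -0.136 to 0.161. With the numbers as a replicate block, 6 pseudogenes and 9 parent genes were called, the sums' difference stayed at -0.0692, and not every sample correlated best with its own number. Over all genes, the block gave 1322 calls at an adjusted p under 0.05, against 730 without it. Whether the samples were paired is not settled by these values.

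Signs of log2 fold changes near 0 turned when single samples were left out for RPL23AP7 (-0.0841 to 0.0400), RPL23A (-0.0112 to 0.0178), RPL24 (-0.0037 to 0.0519), RPS28 (-0.0468 to 0.0143) and RPL15 (-0.0094 to 0.0193), and with upper quartile factors for RPL23A (-0.0021) and RPL15 (-0.0065). Counting depth limits the 549 pseudogenes with 1 to 10 counts, which were left out of the reported test and entered only the fit without a filter.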
